A study of Mus musculus with 8 samples.

Results

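The nicotinic acetylcholine receptor of skeletal muscle and the proteins that gather it under the motor nerve were followed here in MuSCs from aged mice, as 9 genes chosen by name among the 55487 genes of the count table. They comprised 5 receptor subunits (Chrna1, Chrnb1, Chrnd, Chrng and Chrne) and 4 postsynaptic organizers (Musk, Rapsn, Dok7 and Lrp4), and 8 of the 9 passed the filter on low counts and were tested. MuSCs, the muscle stem cells that repair fibers, were isolated by FACS from hindlimb muscles of aged male mice as cells negative for CD31, CD45, CD11b and SCA1 and positive for CD34 and integrin α7. The cells were kept for 72 hours in growth medium with the combination of nicotinamide and pyridoxine (NAM/PN, given as 1 mM) or with the vehicle, 1% DMSO. The 8 mice were combined into 4 pools of 2 mice, and cells of each pool were cultured under both conditions, so that every condition had 4 libraries. The culture time, dose, DMSO and pool numbers follow the sample labels. The legend in the study gives a different number of replicates for this experiment. Its methods for MuSC proliferation assays give a longer culture and less DMSO. No nerve, myofiber or genetic change was part of the culture, and every library came from cells in growth medium rather than in a medium for differentiation.

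The muscle receptor is a channel of 2 α1 subunits, 1 β1, 1 δ and, at the fifth position, a subunit that changes during development. In fetal and denervated muscle this is γ (Chrng), and in innervated adult fibers it is ε (Chrne), which shortens the opening of the channel and raises its conductance. Agrin released by the nerve binds LRP4, which activates the receptor tyrosine kinase MuSK with DOK7 as its cytoplasmic activator, and rapsyn then anchors the receptors in dense clusters. Myogenic bHLH factors such as MYOD1 and myogenin bind E-boxes in the promoters of receptor genes and switch them on when myoblasts differentiate, so the subunits are also known as early differentiation genes in cultures without nerves.

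In GENCODE M21 on GRCm38, Chrnd (ENSMUSG00000026251, chromosome 1 from 87190607 to 87200070) and Chrng (ENSMUSG00000026253, chromosome 1 from 87204657 to 87212694) lie on the forward strand with 4586 bases between them. Chrnb1 (ENSMUSG00000041189, from 69784036 to 69795943) and Chrne (ENSMUSG00000014609, from 70614883 to 70619216) are both on the reverse strand of chromosome 11. Chrna1 (ENSMUSG00000027107, from 73563215 to 73580338, reverse strand), Rapsn (ENSMUSG00000002104, from 91035620 to 91045729, forward strand) and Lrp4 (ENSMUSG00000027253, from 91457511 to 91513779, forward strand) are on chromosome 2. Musk (ENSMUSG00000057280) spans chromosome 4 from 58285960 to 58374303 and Dok7 (ENSMUSG00000044716) chromosome 5 from 35056766 to 35087839, both on the forward strand.

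Promoters of 4 subunit genes are shown because the fetal and adult subunits differed in these cells, and because Myog, which encodes an E-box-binding factor, fell as described further on. Each window is taken from RefSeq on GRCm38.p6 and runs from 250 bases before to 50 bases after a RefSeq transcript start, written 5′ to 3′ along the gene. Capitals mark CANNTG, the E-box, which reads the same on both strands, and CCGGAA or its reverse complement, the N-box bound by GABP at synaptic genes.
Chrna1 (chr2:73580289-73580588, reverse strand): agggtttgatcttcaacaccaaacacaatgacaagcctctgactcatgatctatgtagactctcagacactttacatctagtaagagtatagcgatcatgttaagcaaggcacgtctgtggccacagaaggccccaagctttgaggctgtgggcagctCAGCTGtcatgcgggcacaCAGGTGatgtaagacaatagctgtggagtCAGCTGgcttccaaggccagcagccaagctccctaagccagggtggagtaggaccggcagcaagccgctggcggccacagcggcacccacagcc
Chrnb1 (chr11:69795888-69796187, reverse strand): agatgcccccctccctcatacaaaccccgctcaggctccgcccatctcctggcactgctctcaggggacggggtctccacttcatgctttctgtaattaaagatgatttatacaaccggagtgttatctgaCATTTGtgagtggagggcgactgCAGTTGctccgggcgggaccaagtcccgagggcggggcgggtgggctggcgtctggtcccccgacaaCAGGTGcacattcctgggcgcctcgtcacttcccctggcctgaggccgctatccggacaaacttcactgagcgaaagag
Chrng (chr1:87205561-87205860, forward strand): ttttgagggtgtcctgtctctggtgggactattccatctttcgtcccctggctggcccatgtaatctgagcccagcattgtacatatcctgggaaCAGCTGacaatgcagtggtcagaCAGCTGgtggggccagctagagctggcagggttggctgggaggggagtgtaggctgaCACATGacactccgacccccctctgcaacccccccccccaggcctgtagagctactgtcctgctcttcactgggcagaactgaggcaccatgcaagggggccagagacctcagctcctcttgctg
Chrne (chr11:70619145-70619444, reverse strand): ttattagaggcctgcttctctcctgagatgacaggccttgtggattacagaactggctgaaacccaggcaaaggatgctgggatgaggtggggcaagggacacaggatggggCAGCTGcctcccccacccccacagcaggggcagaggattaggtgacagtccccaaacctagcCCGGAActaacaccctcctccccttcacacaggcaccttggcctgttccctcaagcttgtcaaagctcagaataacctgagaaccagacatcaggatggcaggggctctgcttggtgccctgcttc

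The Chrna1, Chrnb1 and Chrng windows each held 3 E-boxes, and the Chrne window held 1. In the Chrng window, 2 of the 3 E-boxes read CAGCTG and began at -155 and -132, counted from the first transcribed base as 1. That window begins at 87205561, inside the GENCODE gene, which starts at 87204657. The Chrng positions therefore depend on the RefSeq start used. The Chrna1 window also had 2 CAGCTG sites, which began at -92 and -44, whereas none of the 3 sites of Chrnb1 had these letters. The single marked CCGGAA was in Chrne, starting at -76. Among the 32851 promoter windows of the same length in the table, 72.3% held a CANNTG, 16.3% a CAGCTG and 14.9% a CCGGAA on either strand. The table matched 6 of the 9 genes. The Musk window had 3 E-boxes, and the 2 Dok7 windows had 1 and 0. These letter matches describe the windows and are not measured binding sites.

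Between 6472484 and 10163101 reads were counted on genes in each library, and the expression unit below is CPM, read counts relative to a library size that was scaled by the trimmed mean of M-values. Because the libraries read the 3′ end of transcripts, CPM was not divided by gene length. Of 12060 tested genes, 1.28% were called by the edgeR quasi-likelihood test (Benjamini-Hochberg adjusted p below 0.05), 0.995% were called lower with NAM/PN, and 1.29% were called when the pool was added as a replicate block. Libraries of the 2 conditions did not overlap for 7.21% of the tested genes. Myogenic identity was checked with 9 markers, of which Pax7, Myod1, Itga7, Cdh15, Vcam1, Myf5 and Des were among the 8 that were tested, and 0 of the 8 were called by this test (1 had an unadjusted p below 0.05, and DESeq2 called 0 and voom 1). Their summed level lay between 2909 and 3372 CPM in vehicle libraries and between 2335 and 2929 CPM with NAM/PN.

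Of the 8 tested genes, only Chrng was called by edgeR and DESeq2, beside 1.28% of all tested genes called by edgeR, and it fell with NAM/PN. The voom fit called 2 of the 8, and 3 had an unadjusted p below 0.05 in edgeR. The log2 fold change was negative for 7 of the 8 and positive for Dok7, with a median of -0.65, against -0.0022 over all tested genes. Chrng and Chrnb1 were the 2 whose libraries did not overlap between conditions, beside the 7.21% of all tested genes given above.

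**Figure D1:**
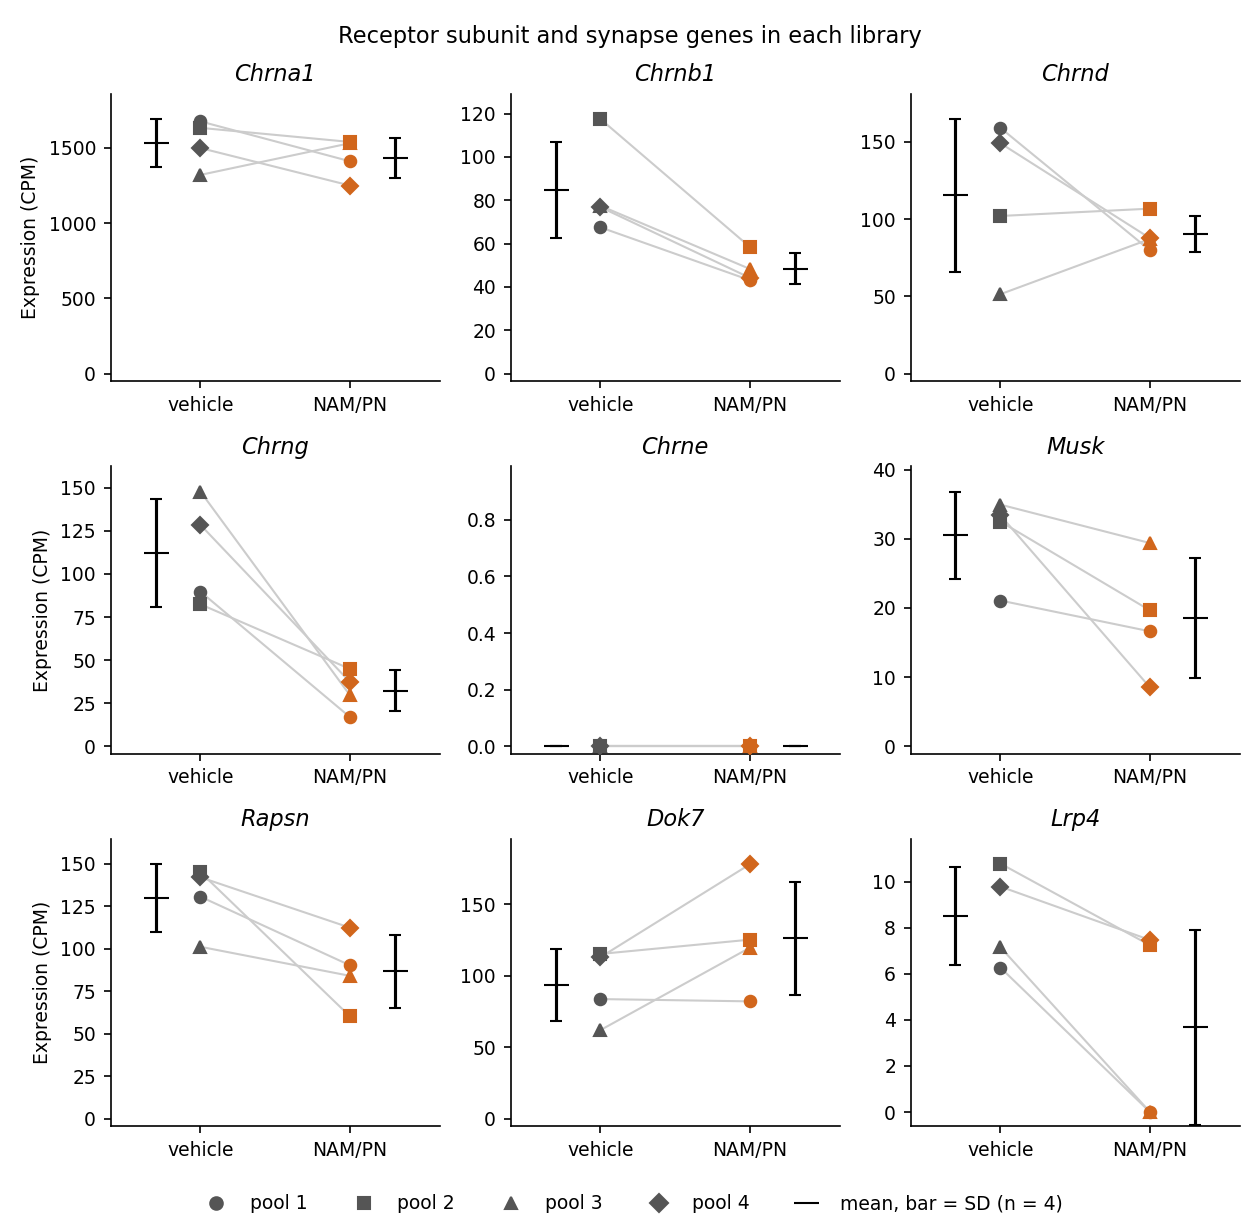
Expression in CPM (y axis, linear, its own scale in each panel) of the 9 genes with vehicle (gray) and NAM/PN (orange). Symbols are single libraries, lines join the libraries of a pool, and bars are mean ± SD (n = 4). The 4 vehicle libraries of Chrng lie above all 4 NAM/PN libraries, those of Chrna1 overlap, and Chrne is at 0 in all 8.

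Chrna1, which encodes the subunit that carries most of the acetylcholine binding site, was the most expressed of the 9 genes in both conditions. Its expression in pools 1 to 4 was 1676, 1633, 1321 and 1499 CPM with vehicle. After NAM/PN it was 1411, 1540, 1531 and 1250 CPM. The conditions overlapped, since pool 3 was lowest with vehicle and higher with NAM/PN, while the other 3 pools were lower. Mean expression was 1532 ± 160.0 and 1433 ± 135 CPM, respectively (n = 4, SD), with a log2 fold change of -0.097 (standard error 0.14, 95% interval -0.39 to 0.20, adjusted p = 0.943 in edgeR's quasi-likelihood test).

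Chrng, the fetal γ subunit, was 89.8, 82.4, 148 and 129 CPM in the vehicle libraries of pools 1 to 4. With NAM/PN, the same pools were at 16.9, 44.9, 29.5 and 37.3 CPM. Every NAM/PN library was below every vehicle library, and the smallest difference within a pool was in pool 2. The vehicle mean was 112 ± 31.2 CPM and the NAM/PN mean 32.1 ± 11.9 CPM (n = 4, SD), a 3.49-fold lower level. This is a log2 fold change of -1.80 (standard error 0.29, 95% interval -2.40 to -1.20, adjusted p = 0.00169 in edgeR's quasi-likelihood test), and Chrng ranked 34 by p-value among the tested genes. Since these are bulk libraries, fewer cells that express a gene and less RNA per cell cannot be told apart.

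Chrne, the adult ε subunit, had 0 counts in all 8 libraries and was not tested. A floor of 3 counts, which covers counting error only, equals 0.295 to 0.464 CPM when related to the library totals. Chrne RNA under this level was not detectable at this depth. The share of Chrng in the sum of Chrng and Chrne counts was therefore 100% in each library, with 95% Clopper-Pearson lower bounds between 97.3% and 99.7%, which cover counting error only. As this share did not vary, no test of it between conditions was possible. The antisense gene 4930544D05Rik, inside the Chrne locus, also had 0 counts in every library.

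Chrnb1, the β1 subunit through which rapsyn-dependent clustering is tuned by phosphorylation, was expressed at 67.5, 117, 77.4 and 76.8 CPM with vehicle. After NAM/PN it was 43.1, 58.4, 48.3 and 44.2 CPM. Each NAM/PN library was below all vehicle libraries, and pool 2 was highest in both conditions. Its vehicle mean was 84.8 ± 22.3 CPM and its NAM/PN mean 48.5 ± 6.97 CPM (n = 4, SD). The log2 fold change of -0.81 (standard error 0.23, 95% interval -1.29 to -0.32) did not pass adjustment over all tested genes (adjusted p = 0.115 in edgeR's quasi-likelihood test). Without the filter on low counts, the same test gave it an adjusted p of 0.0464. Chrnb1 was lower with NAM/PN in 4 of 4 pools.

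Chrnd, the δ subunit and the neighbor of Chrng on chromosome 1, was 159, 102, 51.4 and 149 CPM with vehicle. With NAM/PN it was 79.8, 107, 87.1 and 87.6 CPM, all within the range of the vehicle libraries. It was lower in pools 1 and 4 and higher in pools 2 and 3, for a log2 fold change of -0.35 (standard error 0.27, 95% interval -0.92 to 0.21, adjusted p = 0.812 in edgeR's quasi-likelihood test).

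Within the receptor transcripts, the γ part was smaller with NAM/PN. Chrng made up between 4.26% and 9.26% of the counts of the 5 subunits in vehicle libraries, against 1.09% to 2.63% in NAM/PN libraries. Chrna1 made up between 80.9% and 84.4% in the former and between 88.0% and 91.0% in the latter. Chrnb1 averaged 4.61% and 3.02%, and Chrnd averaged 6.13% and 5.64%. Summed over the 5 subunits, the level was 1845 ± 174 CPM in vehicle and 1604 ± 149 CPM in NAM/PN libraries (n = 4, SD). Because shares add to 100%, a lower share of one subunit raises the others.

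**Figure D2:**
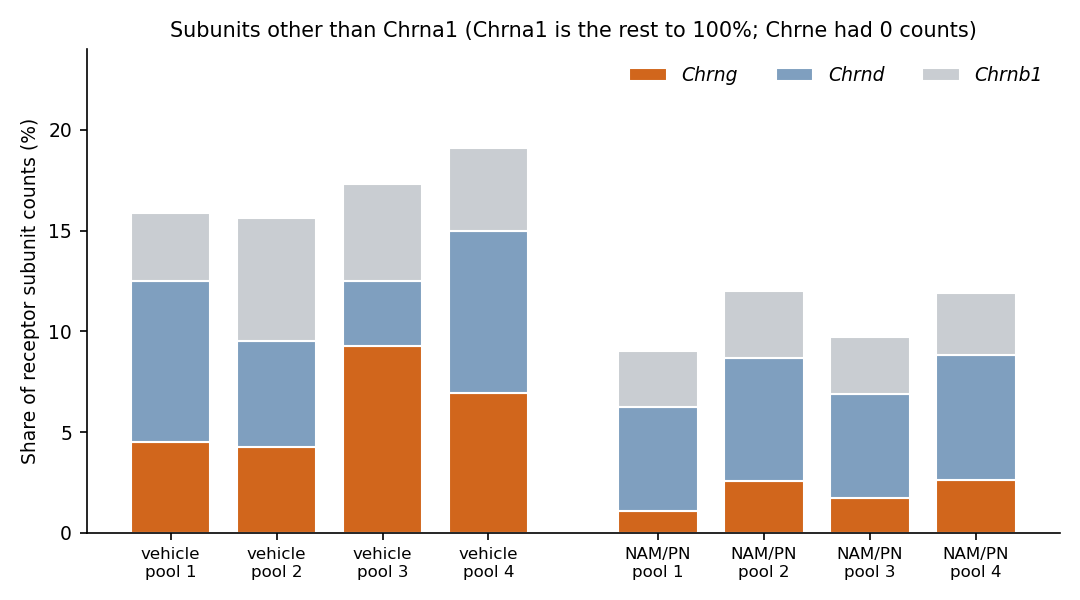
Share of receptor subunit counts, in percent (y axis), taken by Chrng, Chrnd and Chrnb1 in each of the 8 libraries (x axis). Chrna1 is the rest to 100% and Chrne had 0 counts; the Chrng segment spans 4.26% to 9.26% in vehicle and 1.09% to 2.63% in NAM/PN libraries.

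Ratios between subunits avoid that dependence, and 3 of them are given as values without a test, because they were chosen after the values were seen and all carry Chrng. The log2 ratio of Chrng to Chrna1 was between -4.31 and -3.16 in vehicle and between -6.39 and -5.07 in NAM/PN libraries, without overlap, and its means differed by -1.75. For Chrng to Chrnd the ranges were -0.83 to 1.52 and -2.24 to -1.23, also without overlap, with a difference of -1.62. For Chrng to Chrnb1 they were -0.51 to 0.93 and -1.35 to -0.25, which overlapped, with a difference of -1.07. In pool 2 the ratio of Chrng to Chrnb1 went the other way, at -0.51 with vehicle and -0.38 with NAM/PN.

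Musk, the receptor tyrosine kinase of the synapse, was 21.1, 32.5, 35.0 and 33.4 CPM with vehicle, against 16.6, 19.6, 29.4 and 8.50 CPM after NAM/PN. It was lower with NAM/PN in 4 of 4 pools, although the conditions overlapped. Its log2 fold change was -0.72 (standard error 0.38, 95% interval -1.53 to 0.084, adjusted p = 0.629 in edgeR's quasi-likelihood test).

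Rapsn encodes rapsyn, the scaffold that holds receptors in clusters. Its expression was 131, 145, 101 and 142 CPM with vehicle. After NAM/PN it was 90.2, 60.2, 84.1 and 112 CPM. All 4 pools were lower with NAM/PN, and the highest NAM/PN library, pool 4, was above the lowest vehicle library, pool 3. The log2 fold change was -0.58 (standard error 0.21, 95% interval -1.03 to -0.13, adjusted p = 0.309 in edgeR's quasi-likelihood test). Under limma's voomWithQualityWeights with duplicateCorrelation it was -0.77, with an adjusted p of 0.0384. Gm13778, an antisense gene that overlaps the 3′ end of Rapsn by 1638 bases, had between 0 and 24 counts per library.

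Dok7, the cytoplasmic activator of MuSK, was 83.7, 115, 62.0 and 113 CPM with vehicle. After NAM/PN it was 82.1, 125, 120 and 178 CPM. It was higher with NAM/PN in 3 of 4 pools, and the conditions overlapped. Its log2 fold change was 0.43 (standard error 0.25, 95% interval -0.079 to 0.95, adjusted p = 0.672 in edgeR's quasi-likelihood test).

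Lrp4, the agrin receptor, was the least expressed of the tested genes. Its counts were 53, 87, 58 and 90 with vehicle and 0, 52, 0 and 80 with NAM/PN, so that the NAM/PN libraries of pools 1 and 3 had no counts while those of pools 2 and 4 were near the vehicle range. The log2 fold change was -1.20 with a standard error of 1.21 (95% interval -3.73 to 1.33, adjusted p = 0.890 in edgeR's quasi-likelihood test), and it was -3.14 with the pool as a replicate block (adjusted p = 0.642 in the same test). The size of a change in Lrp4 was not determined from these libraries, whose NAM/PN counts ran from 0 to 80.

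The order of expression placed Chrna1 first in both conditions, with no overlap with the gene after it. With vehicle, Rapsn at 130 ± 20.0 CPM, Chrnd at 115 ± 49.4 CPM, Chrng at 112 ± 31.2 CPM, Dok7 at 93.5 ± 25.4 CPM and Chrnb1 at 84.8 ± 22.3 CPM followed (SD, n = 4 for each), and each overlapped the next. Musk at 30.5 ± 6.35 CPM and Lrp4 at 8.51 ± 2.13 CPM stood below them without overlap. With NAM/PN, Dok7 at 126 ± 39.5 CPM, Chrnd at 90.3 ± 11.5 CPM and Rapsn at 86.7 ± 21.5 CPM overlapped one another in that order and were separated from Chrnb1 at 48.5 ± 6.97 CPM. Chrng at 32.1 ± 11.9 CPM overlapped Chrnb1 above it and Musk, at 18.5 ± 8.63 CPM, below it. Chrng was thus in place 4 of the 9 genes with vehicle and in place 6 with NAM/PN.

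Among 23 transcription factors and inhibitors of them that are linked to receptor genes, 20 were tested, 2 were lower with NAM/PN and 0 higher in edgeR's quasi-likelihood test, beside 1.28% of all tested genes called. DESeq2 and voom each called 3, and 5 had an unadjusted p below 0.05 in edgeR. Myog, which encodes myogenin, averaged 929 ± 389.8 CPM in vehicle and 199 ± 74.3 CPM in NAM/PN libraries (n = 4, SD), a log2 fold change of -2.22 (adjusted p = 0.000232 in the same test). Mef2c, a MADS-box partner of the myogenic factors, had a log2 fold change of -2.11 (adjusted p = 0.0125 in the same test). Its call was lost without NAM/PN replicate 1 or vehicle replicate 2 or 3, with adjusted p-values of 0.0577, 0.0691 and 0.0690, and without both libraries of pool 1, 2 or 3, with 0.0655, 0.0936 and 0.131. Myod1 averaged 1366 ± 175 CPM in vehicle and 1201 ± 134 CPM in NAM/PN libraries (n = 4, SD), a log2 fold change of -0.19 (adjusted p = 0.824). The median of the 20 genes was -0.14.

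Of 23 tested genes of differentiating fibers, most of them contractile, edgeR's quasi-likelihood test called 15 lower and 0 higher, beside 1.28% of all tested genes, and DESeq2 and voom called 14 and 16. The fold change was negative for all 23, with a median of -2.33 on the log2 scale. The 15 include the fusion genes Mymk and Mymx, and the list also holds Ckm and Casq2, of energy and calcium handling. Without these 4 genes, a choice made after the data were seen, 13 of 19 tested were called lower by edgeR, with a median of -2.14. Myh3, the embryonic myosin heavy chain, had a log2 fold change of -2.33, and Mylpf, a fast myosin light chain, of -2.41 (adjusted p = 0.000232 and 0.000318 in edgeR's quasi-likelihood test). The summed level of the whole list was between 1969.9 and 3907 CPM in vehicle libraries and between 548 and 1311 CPM with NAM/PN. Relative to Myog, the log2 ratio of Chrng differed by 0.37 between conditions (NAM/PN minus vehicle), and relative to the sum of the list by -0.014. The corresponding differences of Chrna1 were 2.12 and 1.74, those of Chrnb1 1.43 and 1.05, and those of Dok7 2.64 and 2.26. These ratios are given as values without a test, and Lrp4 had none because 2 of its libraries had no counts.

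**Figure D3:**
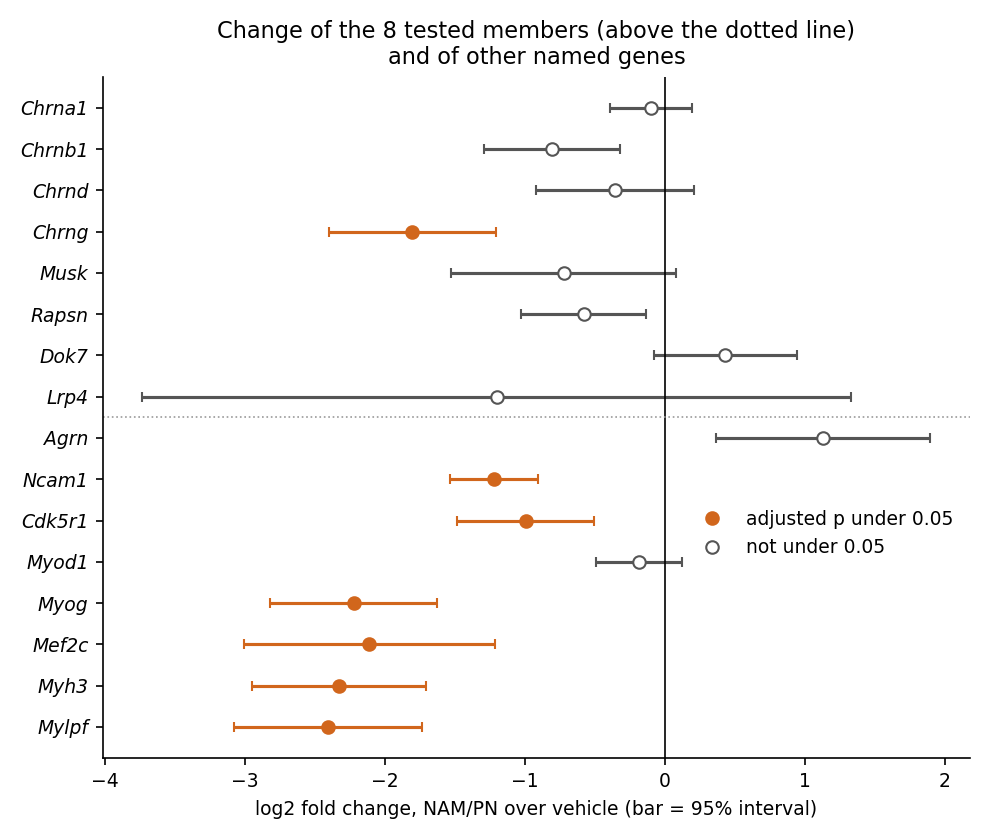
Log2 fold change of NAM/PN over vehicle (x axis) with 95% intervals for the 8 tested members of the receptor and synapse group, above the dotted line, and 8 other named genes. Filled orange points have an adjusted p under 0.05: Chrng alone above the line, at -1.80, and Ncam1, Cdk5r1, Myog, Mef2c, Myh3 and Mylpf below it.

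Around the receptor, edgeR's quasi-likelihood test called 1 gene lower in each of 3 lists and 0 genes higher in them, beside 1.28% of all tested genes called. DESeq2 and voom called 1 and 1 in receptor clustering signaling, 2 and 1 in scaffold and channel, and 1 and 2 in synaptic ligands and basal lamina, and at an unadjusted p below 0.05 in edgeR there were 3, 7 and 3. Of 27 tested genes of receptor clustering signaling, which include the neuregulin receptors, Src family kinases and RAC1, only Cdk5r1, the activator of CDK5, was called, with a log2 fold change of -0.99 (adjusted p = 0.0404 in edgeR's quasi-likelihood test), and the median of the list was -0.12. This call was lost without vehicle replicate 2 or 4 or any 1 of NAM/PN replicates 1, 2 and 3, with adjusted p-values between 0.0947 and 0.193, and without both libraries of pool 1, 2 or 3, with 0.198, 0.419 and 0.0870. Of 13 tested scaffold and channel genes, Ncam1 was called, an adhesion molecule enriched at synapses and in regenerating fibers. Ncam1 averaged 1148 ± 134 CPM in vehicle and 492 ± 46.4 CPM in NAM/PN libraries (n = 4, SD), a log2 fold change of -1.22 (adjusted p = 0.000147 in the same test). The median of this list was -0.54.

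Of 13 synaptic ligands and basal lamina genes, 6 were tested and edgeR called Nid2, a nidogen of the basement membrane. Nid2 had 37, 100, 64 and 110 counts with vehicle and 0 in all 4 NAM/PN libraries. A floor of 3 counts per library gave a bound of 20.1-fold lower, which covers counting error only. Lrp4, at a similar vehicle level (8.51 against 9.17 CPM), had 0, 52, 0 and 80 counts with NAM/PN. The adjusted p of Nid2 was 0.0105 in edgeR's quasi-likelihood test, and 0.0552 with the replicate block. The call was also lost without vehicle replicate 2 or 4, with adjusted p-values of 0.0830 and 0.0767, and without both libraries of pool 2 or 4, with 0.136 and 0.0902. The median of the 6 genes was -0.62, with Nid2 at its fitted value or at its bound. Agrn, the ligand of LRP4, averaged 15.2 ± 1.99 CPM in vehicle and 33.2 ± 13.7 CPM in NAM/PN libraries (n = 4, SD), higher in 4 of 4 pools without overlap, and its log2 fold change of 1.13 did not pass (95% interval 0.37 to 1.90, adjusted p = 0.190 in the same test). Ache had counts in 1 vehicle library and Colq, which anchors acetylcholinesterase, had 0 counts in all 8.

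All 13 genes of receptor assembly and glycosylation were tested and 0 were called in edgeR's quasi-likelihood test, with a median log2 fold change of -0.091. In this list 2 genes had an unadjusted p below 0.05, and DESeq2 and voom called 0. The gene with the smallest p-value among them was Tor1aip1, which had a log2 fold change of -0.66 (adjusted p = 0.498 in the same test). None of the 11 neuronal-type nicotinic subunits passed the filter on low counts. The members of the lists were selected with earlier results known, and the lists are described without a set test.

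**Figure D4:**
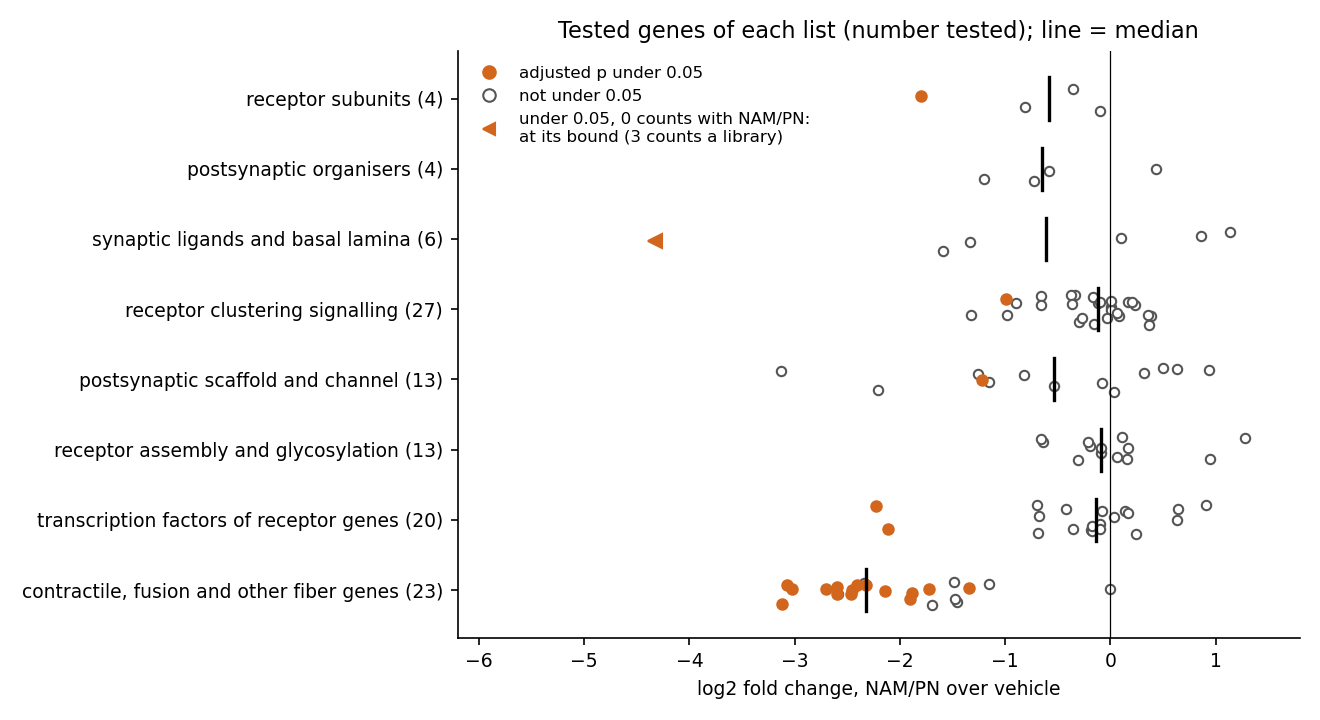
Log2 fold change of NAM/PN over vehicle (x axis) of the tested genes of 8 lists (y axis, number tested in parentheses), where filled orange symbols have an adjusted p under 0.05 and vertical lines are list medians. The triangle is Nid2, without counts in the NAM/PN libraries and drawn at its bound. Contractile, fusion and other fiber genes center on -2.33 and the 2 receptor and organizer groups on -0.58 and -0.65.

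Marker lists of other cell types were measured beside these results. Of 9 fibro-adipogenic markers, 4 were tested and Gsn and Col3a1 were called lower, while Pdgfra and Lum had no counts in any library. Col1a1, named after its values were seen, went the other way, with 4.26, 1.74, 41.3 and 1.74 CPM in the vehicle libraries of pools 1 to 4 and 486, 1032, 3.96 and 3.27 CPM in their NAM/PN libraries. It was high with NAM/PN in pools 1 and 2 and lower than with vehicle in pool 3, for a log2 fold change of 4.97 (adjusted p = 0.0709 in edgeR's quasi-likelihood test). Chrng was called when NAM/PN replicate 1 or NAM/PN replicate 2 alone was left out. Its log2 fold changes were then -1.59 and -2.004, respectively (adjusted p = 0.00668 and 0.00307 in the same test). The 2 libraries were not left out together. The summed level of this list was between 341 and 462 CPM in vehicle libraries and between 138 and 1202 CPM with NAM/PN. Among 7 mural markers 2 were tested and Acta2 was called lower (log2 fold change -2.38, adjusted p = 0.000147 in edgeR's quasi-likelihood test), with summed levels of 274 to 587 CPM and 76.0 to 143 CPM, and Myh11 had no counts. Acta2 is also expressed by differentiating myoblasts. For 8 endothelial, 7 immune and 10 Schwann and nerve markers, 1, 1 and 3 were tested and 0 were called by edgeR, DESeq2 or voom or had an unadjusted p below 0.05. Their summed levels were at most 44.6 CPM in any library. The part of these cell types in the fall of Chrng was not tested.

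The 5 genes whose profiles lay closest to the mean of the 8 tested members over the 8 libraries, by root mean square difference of centered log2 CPM, were Trim2 at 0.13, Nuak1 at 0.14, Dlgap4 at 0.16, Cul7 at 0.17 and Necap1 at 0.17. Dlgap4, a scaffold protein gene, was called lower (log2 fold change -0.90, adjusted p = 0.0206 in edgeR's quasi-likelihood test) and the other 4 were not. The 5 genes were picked by their profiles in these same libraries, so their tests are not independent of that choice. The call of Dlgap4 was lost without NAM/PN replicate 1 or 3 or vehicle replicate 2 or 4, with adjusted p-values between 0.0690 and 0.104, and without both libraries of any 1 pool, with adjusted p-values between 0.0549 and 0.189. With a prior count of 0.5 in place of 2, 3 of the 5 genes were again among the closest. The mean of the members joins Dok7, with a positive fold change, to members with negative ones. It also includes the Lrp4 libraries without counts.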

How the data were processed

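RNA of 8 libraries was sequenced with a QuantSeq 3′ kit. The deposited values are raw read counts for each gene, which the authors made with Bcl2FastQ, casava, RNASTAR and htseq-count on GRCm38; the annotation release, the strand setting and the handling of reads with several matches are not given in the sources used here. Without a known strand setting, reads from a gene and its antisense partner cannot be told apart.

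Gene names and positions were taken from GENCODE M21, which held 55141 of 55487 identifiers, and promoters from RefSeq. Statistics used edgeR 4.0.16, limma 3.58.1 and DESeq2 1.42.0 under R 4.3.3, and figures Python 3.11.15 with matplotlib 3.10.9. Genes passed filterByExpr (minimum count 10, minimum total 15), and NAM/PN was compared with vehicle by glmQLFit and glmQLFTest, once with treatment alone and once with a replicate block for the pool, at an adjusted p of 0.05. The code was tested on simulated data. Confidence intervals are 95%, and library totals set the level in CPM of a floor of 3 counts. Scaling factors were between 0.915 and 1.06. No pair of libraries of a condition agreed within sampling noise (lowest chi-square per degree of freedom 23.6).

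Pool numbers in the labels name the same mice in both conditions; the correlation across genes between the deviations of the 2 libraries of a pool lay between -0.033 and 0.031. Replicates were separate pools of mice. The members and lists were chosen with earlier results of these data known. Named genes were all 9 members, Myog, Myod1, Agrn, Ache and Colq, up to 4 called genes per list by smallest p (otherwise the gene with the smallest p), and the 5 genes with the most similar profiles. Promoters and positions of other genes and protein sequences were not analysed here. Alternatives were the replicate block, DESeq2, RLE size factors, no filter, voomWithQualityWeights with duplicateCorrelation, a threshold of 0.10, a robust fit, thinned counts, CPM on library totals, a prior count of 0.5 and leaving out each library or pool.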

Additional observations from a re-analysis of the deposited data

How the results depend on the processing

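Chrng was the single called member under the replicate block, DESeq2, RLE size factors, a threshold of 0.10, a robust fit and thinned counts, and without any 1 library or pool, where its log2 fold change lay between -2.13 and -1.59 (adjusted p between 0.0027 and 0.0306 in edgeR's quasi-likelihood test). The number of called members was 2 without the filter on low counts, where Chrnb1 joined at -0.82 (adjusted p = 0.0464), and 2 under voomWithQualityWeights with duplicateCorrelation, where Rapsn joined at -0.77 (adjusted p = 0.0384 in limma); the cause was not tested. The replicate block changed no call among the members. It removed the call of Nid2. Of 152 alternative values of the members, 150 kept their direction and their side of the threshold, and 0 reversed. Most of these values belong to members that were not called. The sizes varied more, and the log2 fold change of Lrp4 ran from -4.05 to -0.79. Over all genes, 289 were called with DESeq2, 366 without a filter, 232 with voom, 244 at 0.10, and between 42 and 177 with a library or pool left out, the fewest without pool 2. Cdk5r1, Mef2c, Nid2 and Dlgap4 lost their calls in some of these. With a library left out, alternatives added after the data were seen, the difference in the log2 ratio of Chrng to Chrna1 lay between -1.92 and -1.48, to Chrnd between -1.91 and -1.12, and to Chrnb1 between -1.37 and -0.84. No paired test of the γ share was possible because it was 100% in every library. The floor of 3 counts used for Chrne covers counting error only. Lrp4 had 0, 52, 0 and 80 counts with NAM/PN, in the order of the pools.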
